A study of Solanum lycopersicum with 17 samples.

Results

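A set of 102 tomato genes was read in the floral buds of a male-fertile line, with the highest level at the second of 3 sampled stages, and was low at every stage in buds of a male-sterile line. Low did not always mean missing: 19 of the genes had 0 reads in all 9 sterile libraries, while 16 had reads in each of them. The genes were selected from 34727 gene models by their levels in CPM, a gene's reads divided by the library's total of assigned reads and put on a common scale. A gene was taken when its highest fertile stage mean was at stage 2 and at least 15 CPM and when each of the 3 sterile stage means was at least 8 times lower. The 300 gene models from Solyc02g079190 to Solyc02g082190, around the gene named Ms10, and 4 anther genes described further on were left out. The peak at stage 2 and the low level in sterile buds therefore come from the selection and are given as a description, with no test.

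The fertile buds came from line T-1082 and the sterile buds from line ms1035. Total RNA of whole floral buds was sequenced at stages numbered 1, 2 and 3, which the labels do not define. Each line and stage held 3 libraries labelled as biological replicates, except fertile stage 1 with 2 (replicates 2 and 3), since its replicate 1 was not analysed here. The labels give neither the mutated gene of ms1035 nor how the lines are related, so the mutation and any other difference between the lines cannot be told apart. Nor do they say whether 1 bud or a pool of buds made up a library.

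Inside an anther, a cell layer called the tapetum surrounds the pollen mother cells. It feeds the developing microspores, secretes the enzymes that release them from tetrads, supplies precursors of the pollen wall, and then degenerates. Many of its genes are switched on for a short time, under a cascade of bHLH and MYB transcription factors known best from Arabidopsis and rice. In whole buds, a lower level of a gene can reflect fewer cells of the type that makes it or less RNA per cell, and these cannot be told apart here. Neither the deposited tables nor the RefSeq gene table used here pairs the 102 identifiers with names, so no role is given to any of them.

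Libraries held 499608 to 817548 assigned reads and had reads for 18089 to 19320 gene models. The 102 genes took 1.68% to 4.85% of all reads in fertile stage 2 libraries, 0.501% and 0.814% in those of stage 1, and 0.667% to 1.79% in those of stage 3. In the 9 sterile libraries their share was 0.0262% to 0.0508%. Of the 102 genes, 95 passed the filter on low counts and were tested together with 13568 genes in all. The other 7 had fertile stage 2 means of 15.2 to 47.1 CPM and were not tested. As a description of the tissue, 6 floral organ identity genes were read (TAP3, TM6, a pair of PISTILLATA-type genes, TAG1 and TM5). Their names are recalled from the tomato literature. They had reads in all 17 libraries, which does not measure the organ make-up of the buds.

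**Figure D1:**
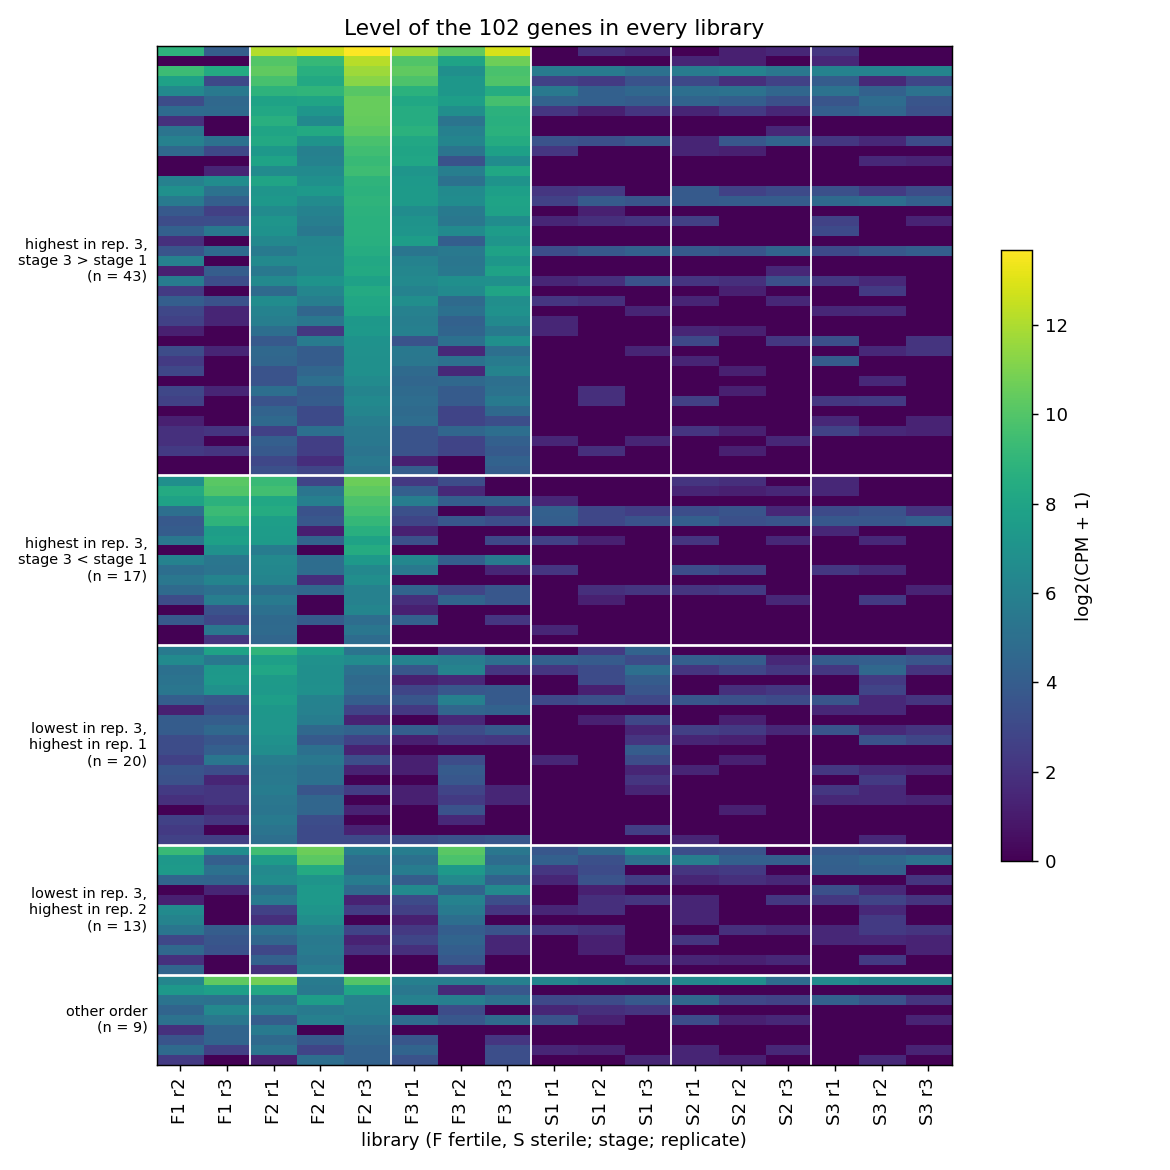
Level of each of the 102 genes (rows) in each of the 17 libraries (columns; F fertile, S sterile, then the stage and replicate), as log2(CPM + 1). Rows are grouped by the order of the 3 fertile stage 2 libraries, and the 60 genes highest in replicate 3 are split by the direction from stage 1 to stage 3. The fertile columns differ between replicates of a stage, and the sterile columns are near 0 for most rows.

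Levels at fertile stage 2 spanned a wide range. The stage mean was 15.2 CPM in the lowest gene, 73.0 CPM in the median gene and 8042 CPM in the highest, with 45 genes at 100 CPM or more and 4 genes at 1000 CPM or more. Per coding length (RPKM, which scales CPM to the length of a gene), the median was 83.0 and the range 12.9 to 8510. The 5 highest per length were Solyc02g078370 (8510 RPKM), Solyc03g098680 (3147 RPKM), Solyc01g095780 (1737 RPKM), Solyc01g100750 (1400 RPKM) and Solyc11g018570 (1191 RPKM).

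Solyc02g078370 was by far the most abundant of the set. Its level at fertile stage 2 was 4375, 6597 and 13154 CPM in replicates 1, 2 and 3. At stage 1 it was 465 and 15.1 CPM in replicates 2 and 3, and at stage 3 it was 3671, 1319 and 7367 CPM in replicates 1, 2 and 3. The stages did not overlap between stage 1 and either later stage, while stages 2 and 3 did overlap. All 9 sterile libraries together held 7 reads of it, and the highest sterile library was at 3.67 CPM. Since this 1 gene could carry a summed level, the sum was also taken without it: the fertile stage 2 libraries then held 16549, 10229 and 35367 CPM for the other genes, and the order of the replicates was the same.

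Solyc03g098680 had 0 reads in both fertile libraries of stage 1. At stage 2 it reached 1052, 565 and 4811 CPM in replicates 1, 2 and 3, and at stage 3 it was at 997, 246 and 1619 CPM. In sterile buds 3 reads were found in all, in 3 different libraries of stages 2 and 3. The ratio of fertile stage 2 to all sterile libraries was 3725, with a 95% exact binomial interval of 1274 to 18070 that covers counting error only.

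Solyc02g088710 and Solyc04g008780 had the reverse course, with high levels at stages 1 and 2 and almost none at stage 3. Solyc02g088710 was at 111 and 1178 CPM at stage 1 (replicates 2 and 3), at 628, 6.12 and 1581 CPM at stage 2 (replicates 1, 2 and 3) and at 3.84, 8.01 and 0 CPM at stage 3. Solyc04g008780 was at 329 and 1009 CPM at stage 1, at 749, 39.1 and 1266 CPM at stage 2 and at 16.6, 2.00 and 0 CPM at stage 3. In both genes replicate 2 of stage 2 lay closer to the stage 3 libraries than to the other stage 2 libraries in CPM. Their sterile libraries held 5 and 4 reads in all.

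Solyc06g007180 showed a further order. It stood at 708, 1563 and 54.6 CPM in replicates 1, 2 and 3 of fertile stage 2, and at 53.7, 1181 and 41.6 CPM in those of stage 3. At stage 1 it was at 627 CPM in replicate 2 and 99.0 CPM in replicate 3. Replicate 2 was the highest library of each of the 3 stages. In sterile buds it had 126 reads, and 1 library, replicate 3 of stage 1, was at 114 CPM while the other 8 were at 0 to 24.9 CPM.

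**Figure D2:**
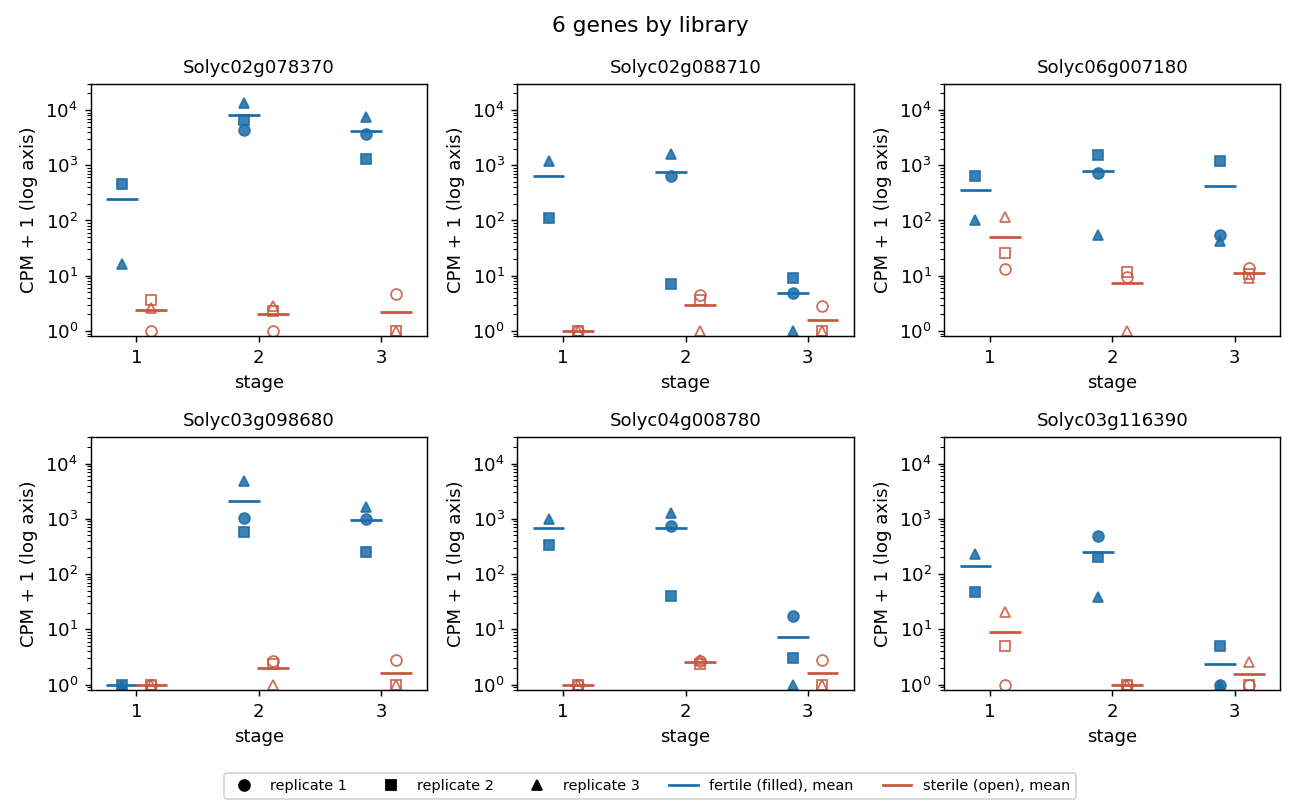
Level of 6 genes in every library by stage, on a log axis of CPM + 1. Filled blue symbols are fertile libraries and open red symbols sterile ones, the symbol gives the replicate, and lines are group means. Solyc02g078370 and Solyc03g098680 stay high at fertile stage 3, Solyc02g088710, Solyc04g008780 and Solyc03g116390 fall to 16.6 CPM or less there, and Solyc06g007180 is highest in replicate 2 at each stage.

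The other 5 of the 10 most abundant genes also varied between the stage 2 libraries. Solyc01g088430 had a stage 2 mean of 1682 ± 1495 CPM (SD, n = 3), Solyc04g081810 of 1201 ± 1124 CPM, Solyc08g080190 of 952 ± 861 CPM, Solyc01g100750 of 689 ± 366 CPM and Solyc01g010390 of 657 ± 709 CPM. In 4 of these 5 the highest stage 2 library was replicate 3. The exception, Solyc08g080190, was at 1764, 50.1 and 1042 CPM in replicates 1, 2 and 3.

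The 3 fertile stage 2 libraries differed from each other in these genes far more than in other genes. The ratio of the highest to the lowest stage 2 library, with a lowest library under 3 reads counted as 3 reads, had a median of 8.83 over the 102 genes. Over the 10919 tested genes with a fertile stage 2 mean of at least 15 CPM the median was 1.56. The ratio was at least 4 in 88 of the 102 genes (86.3%), against 4.89% of those tested genes. In 94 genes a single library held over 50% of the summed stage 2 level. The selection by a stage 2 mean can favour genes with 1 high library, so these shares describe the set and are not a test. The widest spreads were in Solyc02g088710 (258-fold), Solyc11g071900 (107-fold) and Solyc08g079910 (94.7-fold), the latter pair with their lowest library under 3 reads. The narrowest were in Solyc08g077900 (1.30-fold), Solyc01g098220 (1.83-fold) and Solyc04g081040 (1.96-fold).

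The genes of widest spread shared 1 order of libraries. Solyc11g071900 was at 189, 1.22 and 392 CPM in replicates 1, 2 and 3 of fertile stage 2, at 14.7 and 198 CPM at stage 1 (replicates 2 and 3), and had 1 read at stage 3. Solyc08g079910 was at 51.9, 0 and 347 CPM at stage 2 and at 0 and 121 CPM at stage 1, and had 0 reads at stage 3 and in all sterile libraries. In both, as in Solyc02g088710, replicate 3 was the highest library of stages 1 and 2 and replicate 2 the lowest. Neither passed the test between stages 1 and 3 (edgeR adjusted p 0.0588 and 0.236).

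The genes of narrowest spread were of low level. Solyc08g077900 was at 63.6, 48.9 and 60.3 CPM in replicates 1, 2 and 3 of fertile stage 2, at 19.997 and 87.3 CPM at stage 1 and at 0, 8.01 and 0 CPM at stage 3, a change of -4.37 on the log2 scale from stage 1 to stage 3 (SE 0.88, edgeR adjusted p 0.0130). That call was lost without replicate 3 of either stage. Solyc01g098220 was at 24.7, 13.5 and 24.4 CPM and Solyc04g081040 at 24.7, 14.7 and 28.7 CPM at stage 2, and both had 0 reads in all 9 sterile libraries. Solyc08g077900 had 5 sterile reads, all at stage 1, with at least 1 in each of its 3 libraries.

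By the order of the 3 stage 2 libraries, the genes fell into groups that were formed after their values were seen and are therefore only described. Replicate 3 was the highest library in 60 genes (58.8%, against 28.6% of the tested genes with at least 15 CPM). It was the lowest in 33 genes (32.4% against 42.7%). In the remaining 9 genes replicate 3 lay between the other two. Replicate 2 was the lowest library in 52 genes (51.0% against 25.7%).

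The 60 genes highest in replicate 3 split by their course in fertile buds. In 43 of them the stage 3 mean was above the stage 1 mean, and the median level was 6.67 and 1.68 CPM in the stage 1 libraries and 85.7, 38.03 and 132 CPM in those of stage 3. Their stage 2 medians were 85.6, 66.1 and 333 CPM in replicates 1, 2 and 3. In the other 17 the stage 3 mean was below the stage 1 mean. Their median level was 25.3 and 72.2 CPM in the stage 1 libraries, 80.4, 9.79 and 167 CPM in those of stage 2, and 6.39, 0 and 1.73 CPM in those of stage 3. By these medians, replicate 2 was the lowest stage 2 library in both subsets. Gene by gene, replicate 2 was the lowest in 46 of the 60 and replicate 1 in 14, Solyc02g078370 among the latter.

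The 33 genes lowest in replicate 3 had stage 2 medians of 51.9, 55.0 and 5.74 CPM in replicates 1, 2 and 3. Of these, 20 were highest in replicate 1 and 13 in replicate 2. The order of the stage 3 libraries was not used in forming these groups, although stage 3 means entered the selection. At stage 3, replicate 2 was the highest library in 26 of the 33 genes and in 3 of the 60. Among the tested genes with at least 15 CPM it was the highest stage 3 library in 41.2% of those lowest in stage 2 replicate 3, and in 24.2% of those highest in it. At stage 1, replicate 2 was above replicate 3 in 11 of the 13 genes highest in stage 2 replicate 2. Replicate 3 was above replicate 2 in 15 of the 17 genes that were lower at stage 3. The other subsets did not share that order: replicate 2 was the higher stage 1 library in 28 of the 43 genes with a later course, with 8 the other way and 7 equal, and replicate 3 was in 12 of the 20 genes highest in stage 2 replicate 1. Of the tested genes with at least 15 CPM, 53.9% were higher in replicate 2 of stage 1 and 46.0% in replicate 3. The labels do not say that libraries with the same number share plants or a day of harvest.

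**Figure D3:**
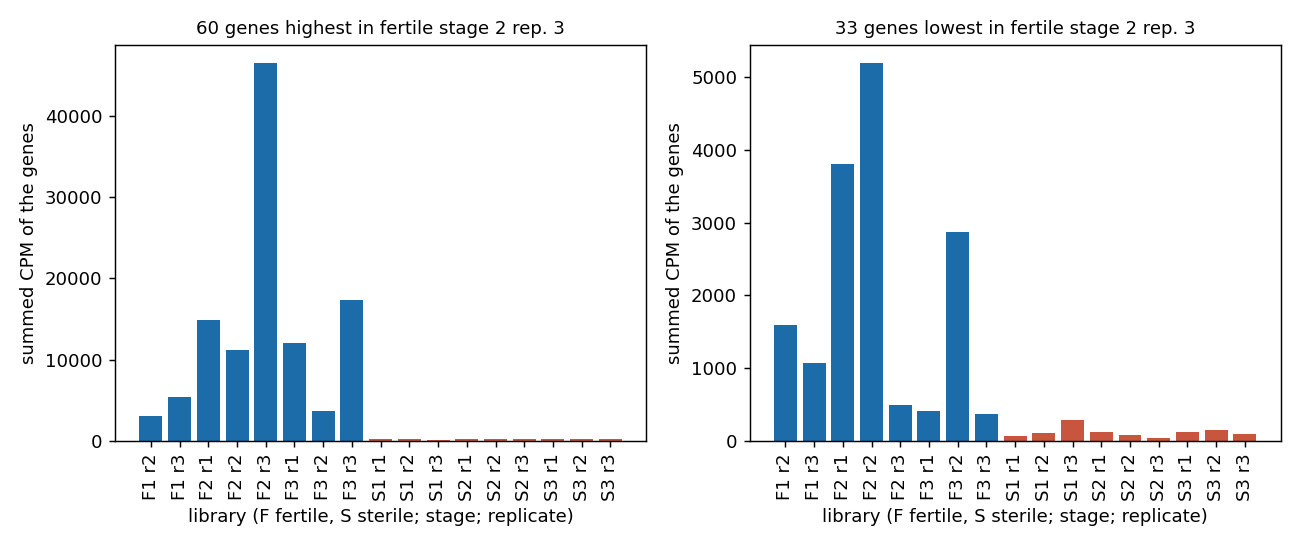
Summed CPM in each of the 17 libraries of the 60 genes that were highest (left) and the 33 that were lowest (right) in fertile stage 2 replicate 3. Bars are single libraries, blue fertile and red sterile, and the 2 axes differ in scale. The left sum is highest in fertile stage 2 replicate 3 (46464 CPM, of which Solyc02g078370 made 13154 CPM), while the right sum is 3814 and 5190 CPM in replicates 1 and 2 and 492 CPM in replicate 3.

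Known anther genes were read beside this order. Of 9 genes of anther regulation and tapetum products with over 3 reads at fertile stage 2, 8 were lowest in replicate 2 and 8 were highest in replicate 3. The regulator AMS was at 429, 154 and 534 CPM in replicates 1, 2 and 3 of fertile stage 2. The tapetum gene TomA108 was at 695, 89.3 and 952 CPM there, and an aspartic proteinase gene at 1936, 7.34 and 1526 CPM. The total of assigned reads was 770779, 817548 and 696470 in replicates 1, 2 and 3, and its part in the order of the libraries was not tested. Whether the stage 2 libraries differ in the age or the make-up of their buds was not tested.

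In many genes the mean was 10 times or more lower on a single side of the fertile peak at stage 2. The ratio of the stage 1 to the stage 2 mean had a median of 0.201, and that of stage 3 to stage 2 a median of 0.410. No gene was confined to stage 2: in none of the 102 were both other stage means 10 times or more below the stage 2 mean. In 36 genes the stage 1 mean was that low, and in 25 the stage 3 mean. There were 7 genes with 0 reads in fertile stage 1 and 7 with 0 reads in fertile stage 3. The stage 3 mean was above the stage 1 mean in 56 genes and below it in 46.

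The order of stages 1 and 3 in fertile buds was not set by the selection and was tested with edgeR's quasi-likelihood test, with Benjamini-Hochberg adjustment over all 13568 genes. Of the 95 tested genes of the set, 20 were higher at stage 3 (21.1%), where 3.45% of all tested genes were called higher. A further 13 were lower (13.7%), where 2.86% of all tested genes were called lower. In each of these 33 genes the libraries of the 2 stages did not overlap. Fertile libraries did not overlap in 37 of all 102 genes with stage 3 higher (36.3%), against 14.5% of all tested genes. With stage 3 lower they did not overlap in 21 (20.6%), a share below the 23.8% of all tested genes. The median log2 change was 0.99 in the 95 genes, and the same with the 11 genes at 0 reads in 1 of the stages set to their bound, against -0.05 in all tested genes. The 20 genes that rose included 19 of the 43 that were highest in stage 2 replicate 3 with a later course. The 13 that fell included 7 of the 17 with an earlier course, 3 of the 33 that were lowest in replicate 3 and 3 of the other 9. The 43 and the 17 were split by the order of their stage 1 and stage 3 means, so the direction of the calls within them was fixed in advance.

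Many of these calls depended on single libraries, and so did calls over all tested genes. Without either library of fertile stage 1, fewer genes were called, both in the set and over all tested genes. Those fits leave 1 library there that is assumed to vary like the other groups. Without replicate 3 of fertile stage 3, 2 genes of the set were called higher and 2 lower. Over all tested genes that fit called 186 higher and 109 lower, against 468 and 388 with every library. Without replicate 1 of fertile stage 3 the counts were 12 and 10 in the set and 444 and 306 over all tested genes. Without its replicate 2 they were 20 and 4 in the set and 249 and 140 over all tested genes. Solyc03g098680 was the 1 gene of the 33 called under all 10 alternative settings.

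Among the genes that rose, Solyc03g098680 was at least 444-fold higher at stage 3 than at stage 1, from 0 reads counted as at most 3 over the stage, with an adjusted p of 0.0029 by edgeR. Solyc01g090350 had 0 CPM in both stage 1 libraries and 270, 10.01 and 98.7 CPM at stage 3, at least 65.9-fold higher, with an edgeR adjusted p of 0.0316. Solyc01g081620 had 0 CPM at stage 1 and 10.2, 32.0 and 111 CPM at stage 3, at least 21.2-fold higher, with an edgeR adjusted p of 0.0402. For the latter pair the replicates of stage 3 differed by more than 10-fold, and each lost its call in 4 of the 5 fits that left out a library.

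The most abundant genes that rose had reads at both stages. Solyc02g078370 rose by 4.24 on the log2 scale (SE 1.01) with an edgeR adjusted p of 0.0205, and lost the call without replicate 3 of either stage. Solyc01g010390, at 7.999 and 23.5 CPM at stage 1 and at 279, 200.2 and 803 CPM at stage 3, rose by 4.91 (SE 0.93, edgeR adjusted p 0.0065). That call did not hold under all settings. Solyc01g100750, at 86.7 and 45.3 CPM at stage 1 and at 419, 148 and 353 CPM at stage 3, rose by 2.33 (SE 0.54, edgeR adjusted p 0.0182). It lost the call without replicate 3 of stage 3, among other settings. Over the 16 genes that rose and had reads at both stages, the change ran from 2.33 to 7.52 on the log2 scale. Solyc01g088430 and Solyc04g081810, both of high level, were not called, with changes of 0.73 (SE 0.75) and 2.65 (SE 1.01).

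Among the genes that fell, Solyc08g060930 had 41.3 and 72.2 CPM at stage 1 and 0 reads at stage 3, at least 34.1-fold higher at stage 1, with an edgeR adjusted p of 0.0450. That call was lost with DESeq2 and without any 1 of the 5 libraries. Solyc02g088710 changed by -7.25 on the log2 scale (SE 1.57) with an edgeR adjusted p of 0.0155. It lost the call without replicate 2 or 3 of stage 3, among other settings. Solyc03g116390 was at 46.7 and 232 CPM at stage 1 and had 2 reads at stage 3. Its ratio of stage 1 to stage 3 was 119 with a 95% exact binomial interval of 32.6 to 995, and its edgeR adjusted p was 0.0128. This call was lost without replicate 3 of stage 3, among other settings. Solyc04g008780 changed by -6.42 (SE 1.13) with an edgeR adjusted p of 0.0060, and lost its call only without replicate 3 of stage 1. The 12 genes that fell and had reads at both stages ran from -7.25 to -2.79 on the log2 scale.

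**Figure D4:**
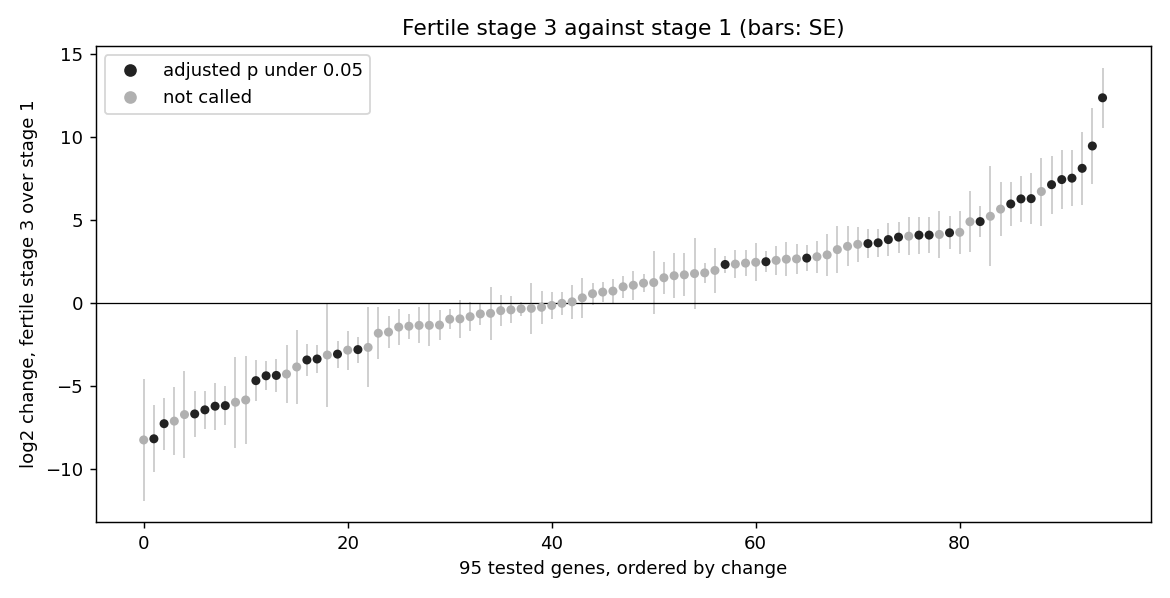
Log2 change from fertile stage 1 to fertile stage 3 in the 95 tested genes, ordered by size. Bars are an approximate SE, the size of the change divided by the square root of the F statistic of edgeR's test. Black points passed an adjusted p of 0.05 (20 higher and 13 lower) and grey points did not. Values beyond about 8 in size belong to genes at or near 0 reads in 1 of the stages, whose fitted change depends on the prior count.

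A low level of reads was found in sterile buds for most of the set, unevenly spread over the genes. Of the 102 genes, 19 had 0 reads in all 9 sterile libraries, whose 5521980 reads allow a level of up to 0.543 CPM from 3 reads. Their fertile stage 2 means were 16.4 to 632 CPM. A further 25 genes had 1 to 3 sterile reads, and 16 genes had reads in each of the 9 sterile libraries. In all, 2267 sterile reads fell on the set, against 63677 reads in the 3 fertile stage 2 libraries. Of these 2267 reads, 36.9% belonged to 3 genes.

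Those 3 genes had reads in every sterile library. Solyc08g080190, with 377 sterile reads, was at 75.1, 52.4 and 35.7 CPM at sterile stage 1, at 81.5, 103 and 27.3 CPM at stage 2 and at 95.4, 69.7 and 70.0 CPM at stage 3. Fertile stage 3 was at 60.1, 56.0 and 62.3 CPM, below all 3 sterile libraries of that stage, so the low level in sterile buds did not extend to stage 3 for this gene. It was the 1 gene of the set with this order, which 6.63% of all tested genes showed at stage 3, and the difference at stage 3 did not pass the test (edgeR adjusted p 0.927). Solyc01g088430, with 300 sterile reads, was at 32.4 to 48.5 CPM at sterile stage 1, at 41.9 to 64.8 CPM at stage 2 and at 65.7 to 71.5 CPM at stage 3. Solyc01g100750, with 159 sterile reads, was at 17.04 to 45.4 CPM over the 9 sterile libraries, with overlap between all stages.

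No gene of the set was called between sterile stages. From stage 1 to stage 3 in sterile buds, 1.43% of all tested genes were called higher and 0.634% lower by edgeR, and 0 of the 95. At an unadjusted p under 0.05, 2 of the 95 were higher and 0 lower. From stage 1 to stage 2, 0 of all tested genes were called, with 598 higher and 329 lower at an unadjusted p under 0.05, of which 0 and 1 belonged to the set. Of the 95, 0 were called by DESeq2 in either comparison. The few reads per gene limit what these tests could detect. The change from stage 1 to stage 3 was also compared between the lines, as a contrast added after the data were seen. By edgeR 0 genes of all tested were called. The few sterile reads of the set limit this contrast too. It therefore cannot tell whether the stage changes of fertile buds are particular to them. At an unadjusted p under 0.05 there were 182 genes higher and 273 lower in all, with 6 and 3 of the set. DESeq2 called 8 genes, 1 of them in the set.

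The residual sterile reads were also summed by group, without a test. The 33 genes lowest in fertile stage 2 replicate 3 summed to 69.9, 110.1 and 292 CPM in replicates 1, 2 and 3 of sterile stage 1, to 122, 80.7 and 43.7 CPM at stage 2 and to 116, 153 and 87.4 CPM at stage 3. The sum of 292 CPM in replicate 3 of stage 1 included Solyc06g007180 at 114 CPM and Solyc12g013620 at 30.8 CPM. The 60 genes highest in fertile stage 2 replicate 3 summed to 162 to 210 CPM at sterile stage 1, 182 to 231 CPM at stage 2 and 218 to 277 CPM at stage 3. Among the 33 genes, 9 had their highest sterile level in stage 1 replicate 3, 10 in stage 3 replicate 2 and 4 in stage 3 replicate 1. Among the 60 genes the counts for these libraries were 1, 8 and 11. Of the tested genes with at least 15 CPM at fertile stage 2 and with sterile reads, 12.1%, 14.9% and 12.8% were highest in these libraries. Where a gene has few sterile reads, a single read can set its highest library.

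The difference between the lines was used by the selection, so the calls below follow from it and nothing is read from them. At stage 2, sterile buds were called lower in 73 of the 95 tested genes by edgeR, and 2.23% of all tested genes were called lower. At stages 1 and 3 the counts were 15 and 27, with 1.09% and 0.568% of all tested genes. In 82 of the 102 genes every sterile library of stage 2 lay below every fertile one, as in 8.65% of all tested genes. At stages 1 and 3 this held for 57 and 58 of the genes, beside 12.4% and 7.65% of all tested genes. In the other 20 genes at stage 2, at least 1 fertile library lay at or below the highest sterile library.

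The floral organ identity genes moved with line and stage as well. All 6 had lower means in sterile than in fertile buds at each stage, and 0, 2 and 0 of them were called lower at stages 1, 2 and 3 (PISTILLATA-type A and TAG1, edgeR adjusted p 0.0216 and 0.0239). Their summed level was 1170 to 1405, 2103 to 3533 and 2951 to 3669 CPM in fertile libraries of stages 1, 2 and 3, and 908 to 996, 1201 to 1631 and 1314 to 2317 CPM in sterile ones, with no overlap between the lines at any stage. From stage 1 to stage 3, 4 of the 6 were called higher in fertile buds (TAP3, PISTILLATA-type A, TAG1 and TM5) and 1 in sterile buds (PISTILLATA-type A). Their part in the results for the 102 genes was not tested.

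Membership itself depended on the fertile stage 2 libraries. Without replicate 3 of fertile stage 2, 53 of the 102 genes still met the conditions, together with 28 other genes. Without replicate 1, 75 did, and without replicate 2, 87 did. Leaving out replicate 2 or 3 of fertile stage 1 kept 85 and 95, and leaving out any 1 of the other 12 libraries kept 98 to 102. The least abundant genes inside the limit of 15 CPM were Solyc01g105770 (15.2 CPM) and Solyc03g019820 (15.5 CPM), and just outside lay Solyc03g082550 (14.9 CPM) and Solyc06g066680 (14.7 CPM). The stage 2 mean was 8.27 and 8.65 times the highest sterile mean in Solyc02g085150 and Solyc01g079300, just inside, and 7.94 and 7.57 times in Solyc02g084840 and Solyc12g007030, just outside.

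Of these genes inside a limit, 3 owed their stage 2 mean to replicate 1. Solyc01g105770 was at 31.1, 7.34 and 7.18 CPM in replicates 1, 2 and 3 of fertile stage 2, Solyc03g019820 at 37.6, 7.34 and 1.44 CPM and Solyc01g079300 at 122, 13.5 and 5.74 CPM. All 3 were among the 7 genes that did not pass the filter on low counts. Solyc02g085150 was highest in replicate 2, with 36.3, 197 and 63.2 CPM, and had 57 sterile reads spread over all 9 sterile libraries.

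**Figure D5:**
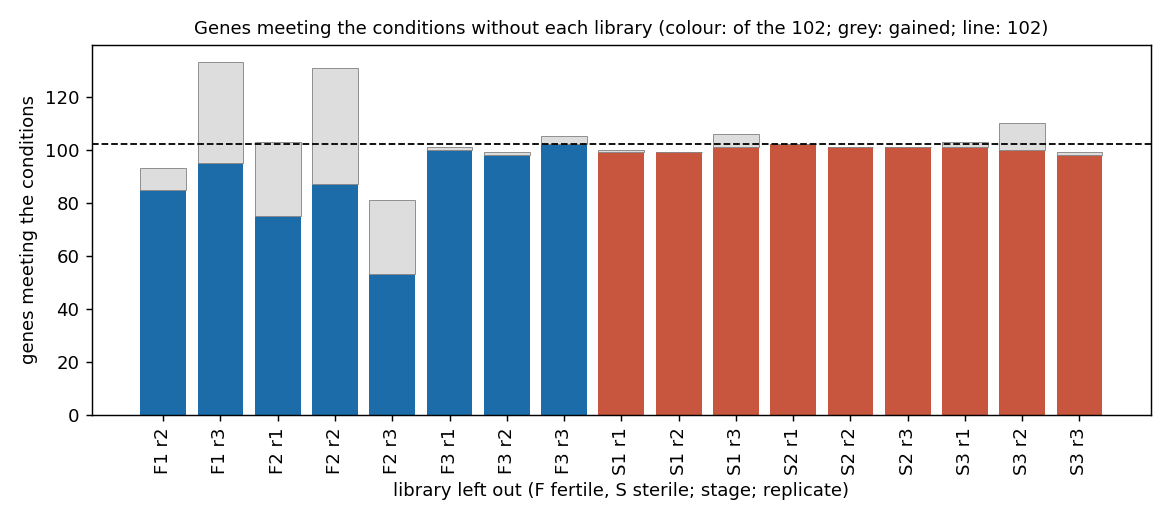
Number of genes that met the conditions when each of the 17 libraries was left out (F fertile, S sterile, then the stage and replicate). Coloured bars are genes of the 102 that remained, grey bars are genes gained, and the dashed line marks 102. The count of remaining genes is lowest, at 53, without fertile stage 2 replicate 3.

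Genes of anther development outside the set were read beside it, and where the set lies among known programmes was not tested. Their names are recalled from the tomato literature and are paired with the identifiers neither by the deposited tables nor by the RefSeq table. Ms10 (Solyc02g079810), which encodes a bHLH factor of early tapetum development, was at 37.3 and 28.5 CPM in fertile stage 1 and at 0 reads in all 3 sterile libraries of that stage. By fertile stage 2 it was at 0, 0 and 2.87 CPM, before the peak of the 102 genes. AMS (Solyc08g062780), the tomato counterpart of an Arabidopsis bHLH gene of tapetum function, was at 516 and 416 CPM at fertile stage 1 and at 161, 28.0 and 69.3 CPM at stage 3. TDF1 (Solyc03g113530), a MYB gene acting before AMS in Arabidopsis, was at 26.7 and 65.5 CPM at fertile stage 1 and at 0 to 5.19 CPM at stage 3. MS1 (Solyc04g008420), a PHD finger gene of late tapetum development in Arabidopsis, was at 9.33 and 97.4 CPM at fertile stage 1, at 50.6, 2.45 and 56.0 CPM at stage 2 and at 0 reads at stage 3. Between the lines, 3, 1 and 1 of 6 regulators were called lower in sterile buds at stages 1, 2 and 3 by edgeR. Of all tested genes, 1.09%, 2.23% and 0.568% were. At stage 1 the calls of Ms10 and TDF1 were lost without any 1 of the 3 sterile libraries, and that of Ms10 also with DESeq2. From stage 1 to 3 in fertile buds 3 of the 6 fell (Ms10, the bHLH gene Ms32 and AMS) and 0 rose, where 2.86% of all tested genes fell. All 3 calls were lost without replicate 2 or 3 of fertile stage 3, and those of Ms10 and Ms32 also with DESeq2. Fits without a fertile stage 1 library leave 1 library there and are not counted for these regulators.

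Of 4 genes for tapetum products, 3, 4 and 1 were called lower in sterile buds at stages 1, 2 and 3. Of all tested genes, 1.09%, 2.23% and 0.568% were. A cysteine protease gene (Solyc07g053460) met all the conditions on level, with 1822, 1936 and 9231 CPM in replicates 1, 2 and 3 of fertile stage 2, and was left out by name. It rose from 26.7 and 0 CPM at fertile stage 1 to 1931, 713 and 4426 CPM at stage 3, a change of 7.502 on the log2 scale (SE 1.17, edgeR adjusted p 0.0026). Its highest stage 2 library was replicate 3, as in the 60 genes. Its lowest was replicate 1, as in 14 of them, while 46 were lowest in replicate 2. TomA108 and the aspartic proteinase gene (Solyc06g069220) fell from stage 1 to stage 3, with edgeR adjusted p values of 0.0071 and 0.0072. The MYB gene MYB80 (Solyc10g005760) also met the conditions, with 38.9, 0 and 50.3 CPM at fertile stage 2, and was left out by name. The other 2 genes left out by name, MS1 and the tapetum gene STR1 (Solyc03g053130), had higher means at fertile stage 1 (53.3 and 737 CPM) than at stage 2 (36.3 and 556 CPM). LAT52 (Solyc10g007270), a gene of maturing pollen, was at 0 to 1.30 CPM at fertile stages 1 and 2 and at 5.12, 22.0 and 5.19 CPM at stage 3, too low to be tested.

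The position and length of the genes were taken from the identifiers and the deposited lengths. By the chromosome number in the identifier, 23 of the 102 genes (22.5%) lie on chromosome 1, which holds 13.1% of the tested genes, and 1 (0.980%) on chromosome 5, which holds 6.49%. Chromosome 2 held 11 genes, of which Solyc02g078370 and Solyc02g078250 were the nearest to Ms10 in the order of identifiers, 143 and 155 gene models before it. The median coding length was 1050 bases, against 1245 bases in tested genes, and 27 genes (26.5%) were 600 bases or shorter, against 12.8%. The median length was 1071 bases in the 60 genes highest in stage 2 replicate 3 and 750 bases in the 33 lowest in it. All reads of each of the 102 genes were assigned uniquely, as in 98.6% of the tested genes.

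Direct neighbours in the order of identifiers formed 2 pairs. Solyc11g073200 and Solyc11g073210 had the same course: the first was at 158, 97.9 and 478 CPM and the second at 66.2, 22.0 and 256 CPM in replicates 1, 2 and 3 of fertile stage 2. Both were called higher at stage 3 than at stage 1 (edgeR adjusted p 0.0262 and 0.0369). In sterile buds the first was at 5.24 to 29.9 CPM while the second had 3 reads in all, so the neighbours differed in their residual level. The other pair differed in the order of libraries. Solyc12g013620 was at 271, 113 and 31.6 CPM and Solyc12g013630 at 296, 44.0 and 258 CPM in replicates 1, 2 and 3 of fertile stage 2. Solyc12g013620 had 52 sterile reads, and Solyc12g013630 had 0 sterile reads and was at least 358-fold higher at fertile stage 2 than in all sterile libraries together.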

How the data were processed

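RNA-seq of tomato floral buds was analysed in 17 libraries, 9 sterile and 8 fertile. The deposited tables give, per the file headers, counts of all and of uniquely assigned reads per gene model, the gene length and RPKM. No aligner, counting program or strand setting is given in the sources used here. The lengths are coding lengths, since all but 1 are multiples of 3. No other column was used, and 0 columns belonged to other samples.

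Levels are CPM from all assigned reads. RPKM were recomputed from counts. Compared with the deposited RPKM at a relative tolerance of 1e-06, 0 of 590359 values lay outside it. Counts were tested in edgeR 4.0.16 (R 4.3.3) with filterByExpr on 6 groups of line and stage, TMM factors (0.901 to 1.09), 1 quasi-likelihood fit of all libraries with 11 residual degrees of freedom (common dispersion 0.0844) and a Benjamini-Hochberg adjusted p under 0.05. The filter left 13568 genes and at least 97.0% of reads per library. The fit was tested on simulated data. The edgeR test gives no SE, so the SE of a log2 change is its size divided by the square root of the F statistic, an approximation. P-values measure only the spread between these samples, which may be technical. A group at 0 reads counts as at most 3 reads over the group, and intervals cover counting error only, without molecular identifiers.

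Alternatives were DESeq2 1.42.0, its size factors within edgeR, no filter, unique reads, the replicate number as a block, each library left out, and other limits of the selection.

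The members, the lists and the tests were chosen with earlier results of these data known. Genes named are the 10 highest at fertile stage 2, those beside each limit, up to 3 called each way, the 3 with most sterile reads, the 3 with the widest and narrowest stage 2 spread, direct neighbours and all list genes. Solyc01g095780 and Solyc11g018570 were added for their RPKM after their values were seen.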

Additional observations from a re-analysis of the deposited data

How the results depend on the processing

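Counts of calls over all genes moved under several settings. Without the filter, calls between the lines were 425, 891 and 305 at stages 1, 2 and 3 (158, 384 and 100 as reported). At fertile stage 3, 37 genes of the set were then higher than at stage 1 (20 as reported), and 607 over all genes (468 with the filter). Sterile stages 3 and 2 against 1 gave 528 and 89 calls without the filter, and the contrast of the stage change between the lines gave 11. With DESeq2 the line difference at stage 3 gave 156 calls, sterile stages 3 and 2 against 1 gave 428 and 34, and the contrast between the lines 8. With each library left out in turn, fertile stage 3 against 1 gave 83 to 750 calls, of which 1 to 20 higher and 0 to 11 lower in the set. The line differences gave 54 to 208, 164 to 398 and 13 to 129, sterile stages 3 and 2 against 1 gave 18 to 474 and 0 to 45, the contrast between the lines 0 to 1, and the selection itself 81 to 133 genes. Under the other limits tried, 74 to 145 genes met the conditions. The cause of these moves was not tested, beyond the smaller number of libraries where 1 was left out.

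The replicate numbers were not taken to pair libraries, since correlations of same-numbered deviations were not all over 0.1 (0.0352 and 0.182 in fertile stages 1 and 3, 0.0128 to 0.384 in sterile ones), although 14 of 17 libraries correlated best with their own number, a hint from the data. With the replicate block, calls were 1299 for fertile stage 3 against 1 (856 as reported), 293, 732 and 221 between the lines, 679 and 28 for sterile stages 3 and 2 against 1, and 2 for the contrast between the lines. In the set 28 genes were then higher and 17 lower at fertile stage 3, and over all tested genes 717 and 582.

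For single genes, the change from fertile stage 1 to 3 turned its sign in Solyc04g081040 (0.30 without fertile stage 1 replicate 2, 0.25 without stage 3 replicate 2 and 0.07 without stage 3 replicate 3, against -0.25, with a range of -2.23 to 0.30) and in Solyc06g007180 (-0.41 without stage 1 replicate 3 and -2.79 without stage 3 replicate 2, against 0.32, with a range of -2.79 to 2.17). The cysteine protease gene Solyc07g053460 turned to 1.80 between the lines at stage 1 without fertile stage 1 replicate 2, with a range of -6.16 to 1.80 over the libraries left out. None of these values was called, and the cause was not tested. Of the other named-gene values under the alternatives, 544 kept their direction and side of the threshold, 85 lost a call and 41 gained one. At 499608 to 817548 reads a library, a level under 3.67 to 6.005 CPM is not separable from 0.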
